A study of Homo sapiens with 6 samples.

Results

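Histone genes were followed in Jurkat cells, a line grown from a human T-cell leukemia, after exposure to BPAF (bisphenol AF), in which fluorine replaces hydrogens of bisphenol A. The 81 genes were the protein-coding genes whose symbols name an H1, H2A, H2B, H3 or H4 gene of the histone clusters or one of the H1, H2A, H3.3 and macroH2A variants, out of 60856 features in the deposited tables. They comprised 69 clustered genes (6 H1, 17 H2A, 18 H2B, 13 H3 and 15 H4) and 12 variant genes. Of the clustered genes, 55 lay on chromosome 6, 13 on chromosome 1 and 1, H4C16, on chromosome 12. Symbols came from a symbol table for 79 genes and from older names and RefSeq synonyms for H2AC18 and H2AC19.

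The BPAF group held 3 libraries of cells exposed to 1 µM BPAF, and the DMSO group held 3 libraries of cells exposed to the vehicle dimethyl sulfoxide at 0.1%. Both groups carried the genotype label WT and were grown in the same serum-containing RPMI medium. The labels disagree on the exposure time, which is 12 h in the sample labels and the design text and 24 h in the treatment protocol. All libraries came from 1 cell line, and the design text names the 3 libraries of each group as biological replicates without saying how the cultures were separated. The series title places the study in estrogen signalling and inflammation.

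Clustered histone genes are switched on in S phase, when new DNA has to be packed into nucleosomes. Their messages have no introns and usually end, without a poly(A) tail, just after a short stem-loop that is bound by the stem-loop binding protein SLBP. The variant genes are transcribed through the whole cell cycle, lie outside the clusters, often contain introns and give polyadenylated messages. Some clustered genes can also give polyadenylated messages when transcription runs past the stem-loop to a downstream poly(A) site. RNA was selected here with oligo(dT) beads, per the labels' protocols, so the values describe RNA enriched for polyadenylated messages and not total RNA. RNAs without a poly(A) tail were still counted in these libraries, as given further on. Clustered reads from messages with and without a tail therefore cannot be told apart here.

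The stem-loop was searched for in the GENCODE release 29 transcripts of every member, because it is the element that separates the clustered from the variant messages. The pattern was a stem of 6 bases (GGNNCT on its left arm and AGNNCC on its right, with the N positions able to pair) around a loop of 4 with the letters NTTN, on the transcript strand, and 30 of 67 clustered genes with a protein-coding transcript model held a match. Among the 12 variant genes only H2AX held one. Over all 19684 protein-coding genes the share was 0.208%, and 10 of the genes with a match were not members. Absence of a match says only that these letters are not in the annotated model. The sequences below are in DNA letters on the transcript strand, read 5′ to 3′, with the stem-loop in capitals and 5 flanking bases on each side. They show the only clustered gene called higher, the other carriers of its stem-loop, and the stem-loops of members described further on.
H3C8, chr6:26270923-26270938, minus strand: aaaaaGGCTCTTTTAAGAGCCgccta
H2BC7, chr6:26199968-26199983, plus strand: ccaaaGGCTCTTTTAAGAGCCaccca
H2BC5, chr6:26158587-26158602, plus strand: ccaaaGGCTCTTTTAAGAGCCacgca
H2BC4, chr6:26123472-26123487, minus strand: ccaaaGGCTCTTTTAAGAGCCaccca
H2BC18, chr1:149811885-149811900, minus strand: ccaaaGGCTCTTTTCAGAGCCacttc
H2AC18, chr1:149842223-149842238, minus strand: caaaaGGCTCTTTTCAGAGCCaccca
H4C11, chr6:27824459-27824474, plus strand: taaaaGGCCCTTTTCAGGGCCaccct
H4C14, chr1:149833032-149833047, plus strand: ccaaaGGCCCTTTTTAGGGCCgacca
H2AX, chr11:119094898-119094913, minus strand: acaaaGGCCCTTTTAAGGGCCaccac
Positions are those of the capitals on GRCh38. The members held 6 distinct stem-loops. The one printed for H2BC18 and H2AC18 occurred in 17 members, the one printed for H4C11 in 5, the one printed for H3C8 in 4 and the one printed for H4C14 in 3. H2AC11 and H2AX each had a stem-loop that no other member carried. A polyadenylation signal, AATAAA or ATTAAA, stood in the last 40 bases of a transcript model in 22 clustered genes and 9 variant genes.

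Library totals were 21378320, 20253656 and 22617613 rounded counts in BPAF and 22117976, 20745097 and 20935609 in DMSO. The BPAF libraries had counts above 0 for 23325 to 23711 features and the DMSO libraries for 22637 to 23047. The markers of T cells were present in all libraries, with a summed level of 3609 to 3777 CPM (counts per unit of library total, after TMM scaling) in BPAF and 3741 to 3809 CPM in DMSO, and 0 of 12 were called. Myeloid markers summed to 0.35 to 0.42 CPM in BPAF and 0.18 to 0.68 CPM in DMSO, and B-cell markers to 11.7 to 12.5 CPM in BPAF and 12.8 to 15.1 CPM in DMSO. Of 15490 genes tested over the whole table, 411 were higher and 527 lower in BPAF, together 6.06% (edgeR quasi-likelihood test, Benjamini-Hochberg adjusted p under 0.05).

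The variant genes supplied nearly all histone reads. Their summed level was 3459, 3406 and 3315 TPM (a level per length, scaled to a common total) in BPAF, against 3494, 3439 and 3450 TPM in DMSO. The 69 clustered genes together had 204, 187 and 193 TPM in BPAF, against 183, 170.0 and 172 TPM in DMSO. On this scale the variant sum was 17.5 times the clustered sum in BPAF and 19.8 times in DMSO. These are bulk libraries, in which fewer cells with a message and less message per cell cannot be told apart.

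Among the variants, the messages of H2AZ1, H3-3A and H3-3B were lower in BPAF, by 1.16-, 1.11- and 1.08-fold in the counts, and no variant was called higher. In the deposited TPM the H3-3B value was above 0, close to the median of all genes on that scale. Of 12 variant genes 9 were tested, and 3 were called lower, where 3.4% of all tested genes were and 4.61% of the more abundant genes, those above the highest clustered level. The median log2 fold change of the 9 was -0.09, beside 0.0019 over all genes, and 7 of the 9 were below 0. In 4 variants all BPAF libraries lay below all DMSO libraries in CPM, and in 1 all lay above, where 12.8% of all tested genes were lower and 12% were higher in that way, 24.8% in all.

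H2AZ1 (ENSG00000164032, chr4:99948086-99950388, minus strand, GRCh38) encodes H2A.Z, an H2A variant placed at promoters and enhancers by dedicated exchange complexes. It was the most abundant histone message per length (1282 TPM in BPAF and 1414 TPM in DMSO on average). Its level in counts was 589.8, 594 and 550.4 CPM in BPAF against 665, 651 and 702 CPM in DMSO. No library of one group reached the range of the other, and the means were 578 ± 24.0 CPM in BPAF and 673 ± 26.1 CPM in DMSO (SD, n = 3 each). The log2 fold change was -0.22 with a standard error (SE) of 0.03 (edgeR quasi-likelihood test, adjusted p = 0.00123), and it passed with each of the 6 libraries left out in turn. Its paralog H2AZ2, which encodes a nearly identical H2A.Z, had 282, 289 and 294 CPM in BPAF against 285, 276 and 288 CPM in DMSO. These ranges overlapped, and the log2 fold change was 0.03 with an SE of 0.03 (edgeR, adjusted p = 0.686). Together the pair had 866.5 ± 19.5 CPM in BPAF and 956 ± 32.0 CPM in DMSO (SD, n = 3 each).

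H3-3A (ENSG00000163041, chr1:226061851-226072001, plus strand) and H3-3B (ENSG00000132475, chr17:75776434-75785893, minus strand) encode the same protein, H3.3, the H3 variant laid down outside DNA replication. H3-3A had 345.5, 336 and 344 CPM in BPAF against 391, 371 and 379 CPM in DMSO. The groups did not overlap, and the log2 fold change was -0.15 with an SE of 0.03 (edgeR quasi-likelihood test, adjusted p = 0.00371), passing with each of the 6 libraries left out. H3-3B had 429, 448 and 447 CPM in BPAF against 474, 465 and 489.8 CPM in DMSO. Its ranges were separate as well, with a log2 fold change of -0.11 and an SE of 0.03 (edgeR, adjusted p = 0.0322). The H3-3B call was lost without BPAF1, BPAF3, DMSO1 or DMSO3, where the adjusted p reached 0.221, and under upper quartile scaling, where it was 0.054. In the deposited TPM the value was above 0. Both genes have processed copies elsewhere in the genome and fractional counts in the deposited table.

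No other variant was called. MACROH2A1 encodes macroH2A1, an H2A variant with a large globular domain found on silent chromatin. It had 489.5, 479 and 488 CPM in BPAF against 494, 479.7 and 503 CPM in DMSO, and its log2 fold change was -0.02 (edgeR, adjusted p = 0.768). H2AX, whose protein is phosphorylated beside DNA breaks, had 107, 109.7 and 99.3 CPM in BPAF against 108, 115 and 107 CPM in DMSO. Its log2 fold change was -0.06 (edgeR, adjusted p = 0.471). H2AX is the variant that keeps a stem-loop, and its annotated model runs 1044 bases past it.

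H1-10 encodes a linker histone, which binds the DNA between nucleosomes. It had 112, 146 and 116 CPM in BPAF against 104, 100.7 and 112 CPM in DMSO. The BPAF2 library stood above the other 5, and the lowest BPAF and the highest DMSO value were both 112.2 CPM. The log2 fold change was 0.24 with an SE of 0.13 (edgeR, adjusted p = 0.403). MACROH2A2 was near the limit of detection, with 8, 15 and 10 counts in BPAF and 19, 12 and 15.03 in DMSO (edgeR, adjusted p = 0.535). In the TPM table its DMSO2 value was 24.4, while the other 5 libraries had 0.31 to 1.35 TPM. H1-7, H1-8 and H2AJ were not tested: H1-7 had 3 counts over the 6 libraries, H2AJ had 1, and the oocyte linker histone H1-8 was at 0 in each. A count of 0 allows up to 3 counts, or 0.133 to 0.148 CPM in these libraries, from counting error alone.

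**Figure D1:**
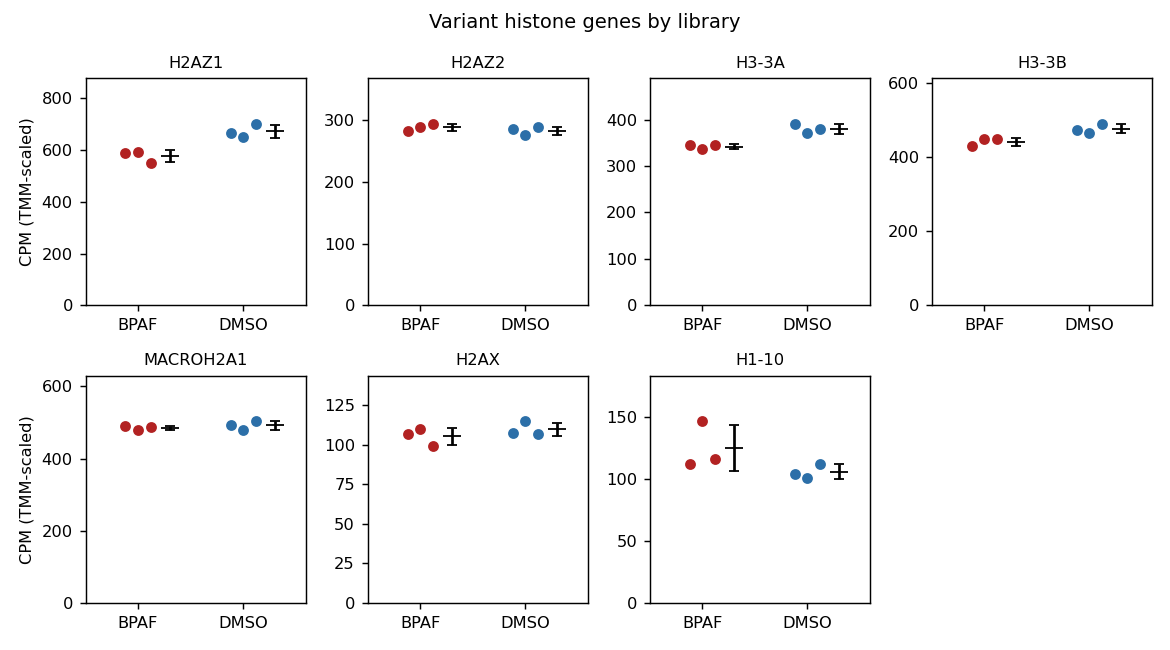
TMM-scaled CPM of 7 abundant variant genes in each library (points), with mean and SD bars (n = 3 per group), BPAF left and DMSO right, on linear axes from 0. H2AZ1, H3-3A and H3-3B (the last of which turns direction in TPM) lie lower in BPAF without overlap, at 578, 342 and 442 CPM on average in BPAF against 673, 380.3 and 476 CPM in DMSO.

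In the deposited TPM H3-3B was not lower in BPAF. It averaged 629.7 ± 33.1 TPM in BPAF and 588 ± 19.1 TPM in DMSO (SD, n = 3 each), a log2 difference of 0.10 in log2(TPM + 1), while its counts were lower. The CPM per TPM of H3-3B in BPAF was 0.926 times that in DMSO (each relative to the median of abundant genes), which amounts to a shorter length for this gene in the BPAF columns of the TPM table. H2AZ1 stayed lower in TPM, at 1282 ± 40.9 in BPAF and 1414 ± 20.6 in DMSO, with a difference of -0.14 in log2(TPM + 1). H3-3A also stayed lower, at 583 ± 14.8 TPM in BPAF and 616 ± 18.4 TPM in DMSO, with a difference of -0.08. The median of all genes lay at 0.08 on this scale, so the values of H2AZ1 and H3-3A were further below the other genes than below 0, and that of H3-3B was close to theirs. With limma on log2(TPM + 1), 0 variants passed and 1 gene passed over the whole table. In 15.7% of tested genes the CPM per TPM differed over 1.1-fold between the groups.

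**Figure D2:**
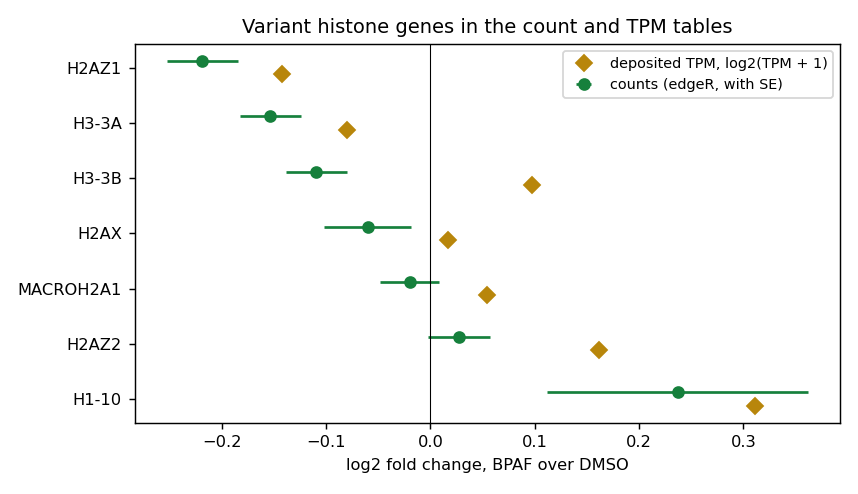
log2 fold change of BPAF over DMSO for 7 variant genes, from counts (circles, edgeR, bars are the SE) and from deposited TPM (diamonds, log2(TPM + 1)). H3-3B is at -0.11 in counts and 0.10 in TPM, and H2AZ1 and H3-3A are below 0 in both.

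Summed over all 69, the clustered genes had low levels that were somewhat higher in BPAF once scaled. There was 1 gene called, and the sum of the H4 genes did not share the direction. Their summed count was 1030, 856 and 1032 in BPAF and 864, 767 and 802 in DMSO, which overlap. Scaled by TMM, the sums were 47.6, 42.0 and 45.0 CPM in BPAF against 39.6, 37.3 and 39.0 CPM in DMSO, or 44.9 ± 2.83 CPM in BPAF and 38.6 ± 1.20 CPM in DMSO (SD, n = 3 each). The BPAF libraries lay above the DMSO libraries, with a ratio of 1.16. In TPM the ratio was 1.11, at 194 ± 8.69 TPM in BPAF and 175 ± 7.16 TPM in DMSO. Of 62 clustered genes detected, 44 had the higher mean in BPAF (71.0%) and 18 had it in DMSO, where 53.1% of all 30282 detected features had the higher mean in BPAF.

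Genes of like level moved in the same direction. The 4188 tested genes at or under the highest clustered level, an average log2 CPM of 2.10, had a median log2 fold change of 0.12, and 63.9% of them were above 0. They summed to 6641 ± 118 CPM in BPAF and 6112 ± 63.9 CPM in DMSO (SD, n = 3 each), a ratio of 1.09. The 28 tested clustered genes had a median of 0.19, and 22 of 28 were above 0, but a gene can enter the test through its counts in 1 group alone, so these describe the tested genes and not all 69. The filter level was reached in 3 libraries of both groups by 16 of the 28, in 3 BPAF but fewer DMSO libraries by 5, and in 3 DMSO but fewer BPAF libraries by 1. The 11302 genes above that level, among which the abundant variants lie, had a median of -0.01, with 45.9% above 0. Level differs between the classes in this way, and its part in the gap of 0.28 between the clustered and the variant median was not tested.

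**Figure D3:**
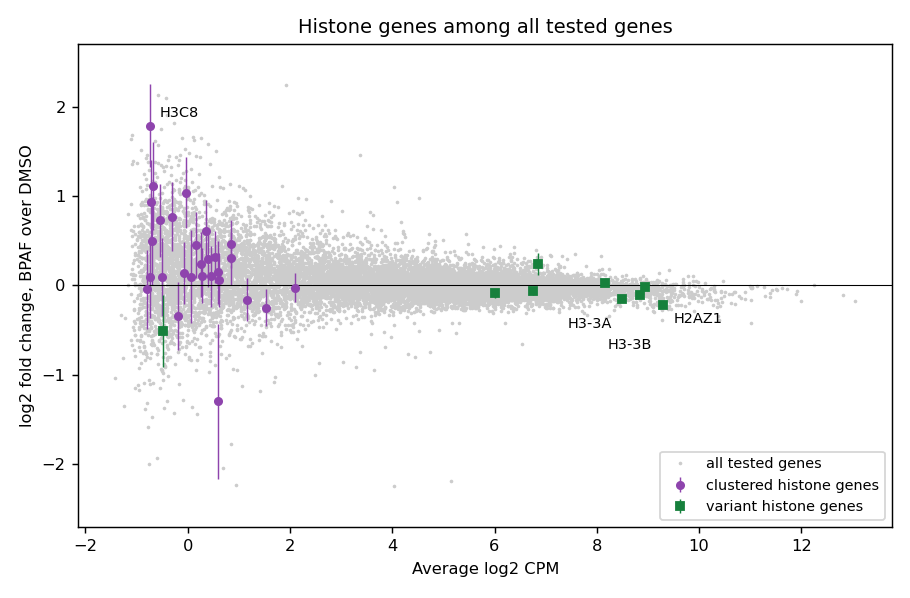
log2 fold change of BPAF over DMSO against average log2 CPM for all 15490 tested genes (grey), the 28 tested clustered genes (purple circles) and the 9 tested variant genes (green squares), with SE bars. The clustered genes sit at the low end, where the grey points also lean above 0, and H3C8 is the only one called, while H2AZ1, H3-3A and H3-3B are the called variants, all below 0 in counts and H3-3B above 0 in TPM.

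By family, the H3 genes of the clusters showed the largest ratio. Their sum was 5.36, 4.71 and 5.66 CPM in BPAF against 3.16, 3.36 and 3.85 CPM in DMSO, a ratio of 1.52, and 1.38 without H3C8. The H1 genes had 3.13 ± 0.27 CPM in BPAF and 2.39 ± 0.22 CPM in DMSO, a ratio of 1.31. The H2A genes had 12.3 ± 0.90 CPM in BPAF and 10.6 ± 0.69 CPM in DMSO, and the H2B genes 14.7 ± 1.19 CPM in BPAF and 12.4 ± 0.67 CPM in DMSO. In these 4 families the groups did not overlap, although the lowest H2A value in BPAF and the highest in DMSO were within 0.01 CPM of each other. The H4 genes overlapped, with 10.1, 8.14 and 10.4 CPM in BPAF against 11.3, 8.27 and 9.74 CPM in DMSO, a ratio of 0.98. In TPM they were at 58.3 ± 4.16 in BPAF and 65.4 ± 7.50 in DMSO, with overlap as well (SD, n = 3 each). Gene by gene, the 6 tested H4 genes had a median log2 fold change of 0.14, with 4 above 0 and 2 below. Of 14 H4 genes detected, 8 had the higher mean in BPAF (57.1%), where 53.1% of all detected features had it.

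**Figure D4:**
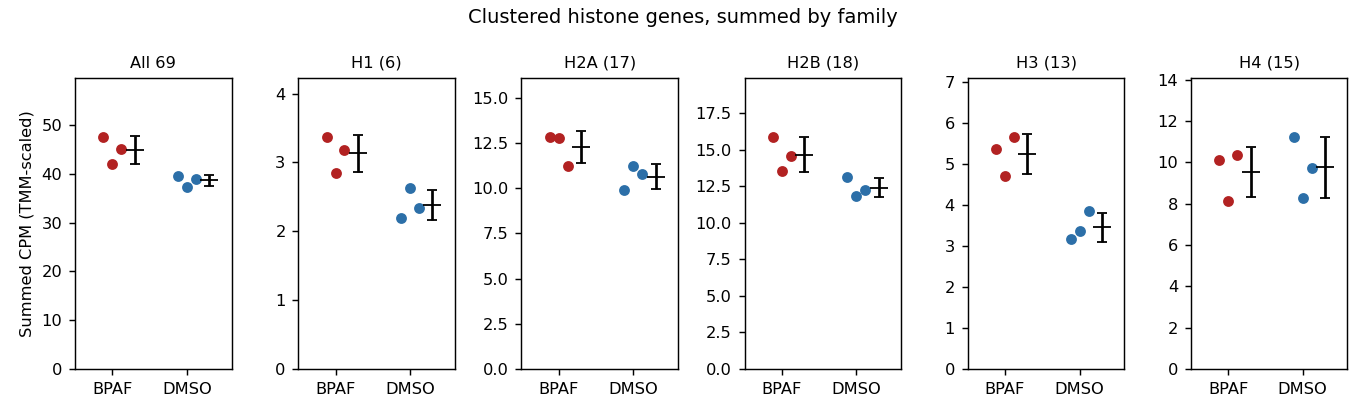
Summed TMM-scaled CPM of all 69 clustered genes and of each family by library (points), with mean and SD bars (n = 3 per group), BPAF left and DMSO right, on linear axes from 0. Every family but H4 is higher in BPAF without overlap, with ratios of 1.31 for H1, 1.16 for H2A, 1.18 for H2B and 1.52 for H3. The H2A groups come within 0.01 CPM of each other, and the H2B groups overlap in unscaled counts. The sum of the 4188 tested genes at or under the clustered level is also higher in BPAF without overlap, at a ratio of 1.09.

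H3C8 (ENSG00000273983, chr6:26269405-26271815, minus strand), which encodes a replication-dependent H3, was the 1 clustered gene called, against 2.65% of all tested genes called higher and 1.12% of those at or under the clustered level. It had 18, 13 and 20 counts in BPAF against 3, 4 and 7 counts in DMSO, all whole numbers. Every BPAF library was above every DMSO library, and the means were 0.78 ± 0.13 CPM in BPAF and 0.22 ± 0.11 CPM in DMSO (SD, n = 3 each). The log2 fold change was 1.79 with an SE of 0.46 (edgeR quasi-likelihood test, adjusted p = 0.0255). H3C8 entered the test through BPAF alone: the filter asks for 0.473 CPM in 3 libraries, which 3 BPAF libraries and 0 DMSO libraries reached. A gene admitted in this way had to differ, so the adjusted p is less firm than it reads. The call was lost without BPAF1, BPAF3, DMSO1 or DMSO2, where the adjusted p reached 0.125, and in DESeq2 without independent filtering, where it was 0.0952. No clustered gene was called lower, where 3.4% of all tested genes were.

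The other clustered genes with large fold changes did not pass. H2BC18, an H2B gene of the chromosome 1 cluster, had 22.4, 16.9 and 38.0 counts in BPAF against 17, 6 and 13 in DMSO, with a log2 fold change of 1.04 and an SE of 0.39 (edgeR, adjusted p = 0.133). H2BC7, an H2B gene with the same stem-loop as H3C8, had 24, 10 and 13 counts in BPAF against 12, 3 and 6 in DMSO, at 1.11 on the log2 scale (edgeR, adjusted p = 0.208). H3C12 and H2AC17, at 0.94 and 0.77 on the log2 scale, both had an adjusted p of 0.274 (edgeR). With H3C8, only H2BC18 and H2BC13 of the tested clustered genes were higher in BPAF without overlap in CPM, and H4C12 was lower, beside 12% and 12.8% of all tested genes. H2BC13, singled out after its values were seen, had 15, 18 and 15 counts in BPAF and 8, 13 and 7 in DMSO. H2BC18, H2BC7, H2AC17 and H2BC13 reached the filter level in 3 BPAF libraries but in only 2, 1, 1 and 1 DMSO libraries. Their BPAF counts alone sufficed for entry to the test, which favours values above 0.

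The 6 clustered genes known to give polyadenylated messages in differentiated or resting cells were H1-2, H2AC6, H2BC4, H2BC5, H2BC12 and H2BC21. All 6 were tested and 0 were called, and their sum was 11.6 ± 0.95 CPM in BPAF and 9.99 ± 0.56 CPM in DMSO (SD, n = 3 each), a ratio of 1.16. The other 63 clustered genes summed to 33.3 ± 2.36 CPM in BPAF and 28.6 ± 1.53 CPM in DMSO, also a ratio of 1.16. H2BC12, the clustered gene with the most counts, had 91, 92 and 86.0 counts in BPAF and 84, 91 and 91 in DMSO, at -0.03 on the log2 scale (edgeR, adjusted p = 0.957). H2BC5 had 51, 29 and 49 counts in BPAF and 33, 23 and 34 in DMSO, at 0.47 on the log2 scale (edgeR, adjusted p = 0.357). H2BC4 had 40, 19 and 35 counts in BPAF and 12, 24 and 23 in DMSO, and its log2 fold change was 0.61 (edgeR, adjusted p = 0.349). Both sets of values overlapped between groups. The linker histone gene H1-2, the H2A gene H2AC6 and the H2B gene H2BC21 had log2 fold changes of 0.31, 0.30 and 0.11.

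Among the remaining clustered genes of highest level per length, H4C1 led, at 23.7 TPM in BPAF and 27.6 TPM in DMSO. Its counts were 63, 53 and 51 in BPAF and 80, 49 and 64 in DMSO, with overlap, at -0.25 on the log2 scale (edgeR, adjusted p = 0.573). H2AC25 and H2AC14 were also below 0, at -0.16 and -0.34 on the log2 scale, and H2BC26 was at -0.05. H2BC17, H2AC20 and H4C8 were at 0.06, 0.10 and 0.14. Each of these 7 had an adjusted p above 0.5 (edgeR), and their groups overlapped. The 3 clustered genes with enough counts for a minimum of 50 were H2AC25, H2BC12 and H4C1, all below 0, and there the clustered median was -0.15.

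The stem-loop of H3C8 was carried by 4 genes, whose log2 fold changes were 1.79 for H3C8, 1.11 for H2BC7, 0.61 for H2BC4 and 0.47 for H2BC5. The form was singled out because H3C8 carries it, and H3C8 and H2BC7 reached the filter level in 3 BPAF libraries but in 0 and 1 DMSO libraries, so these values are not set against those of other forms. H2BC4 and H2BC5 are also in the known polyadenylated set. The annotated model ran 1518 bases past the stem-loop in H3C8, 1479 in H2BC18 and 732 in H2BC7.

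Of the 41 clustered genes that were not tested, 34 were detected and 7 were at 0 in all 6 libraries. The 7 were H1-1, H1-6, H2AC1, H2BC1, H2BC3, H3C3 and H4C7, and H1-6, H2AC1 and H2BC1 are known as testis genes. In 35 clustered genes, those 7 included, the mean count was under 10 in both groups. Of the 34, H2AC16, H2AC21, H2BC10 and H3C13, named after their values were seen, were higher in every BPAF library than in any DMSO library in CPM, which held for 4% of all detected features that were not tested. H2AC16 had 2 counts in both BPAF1 and DMSO1, so its groups are separated by scaling alone. H3C13, an H3 gene of the chromosome 1 cluster, had 10, 11.1 and 12 counts in BPAF and 4.54, 1 and 3 in DMSO, and was not tested because of its low counts.

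Near-identical copies had to be read together. H4C11 and H4C12 lie close to each other on chromosome 6 and share reads in the deposited counts. H4C11 had 42, 15.3 and 0 counts in BPAF and 0, 0 and 0 in DMSO, while H4C12 had 0, 16.7 and 37 in BPAF and 44, 44 and 40 in DMSO. Their sum was 42, 32 and 37 counts in BPAF and 44, 44 and 40 in DMSO. In CPM the sum was 1.71 ± 0.20 in BPAF and 2.03 ± 0.10 in DMSO (SD, n = 3 each), a ratio of 0.84. The groups did not overlap in CPM, with 1.943 as the highest BPAF and 1.949 as the lowest DMSO value. Among all tested genes, 12.8% were lower in that way. Within the pair, the counts of BPAF1 stood wholly on H4C11 and those of BPAF3 wholly on H4C12. The log2 fold change of -1.30 for H4C12 (edgeR, adjusted p = 0.509) and the values of H4C11 are therefore uncertain as single genes. H4C11 was called higher only with no filter on low counts and without BPAF3.

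The same applied to pairs in the chromosome 1 cluster. H2AC18 and H2AC19 together had 65, 60 and 60 counts in BPAF and 56.7, 48.8 and 47.6 in DMSO, without overlap. Each alone overlapped, at log2 fold changes of 0.30 and 0.10. In CPM, 12% of all tested genes and 13% of those at or under the clustered level were higher in BPAF without overlap. H4C14 and H4C15 together had 43, 20 and 32 counts in BPAF and 31, 19 and 23 in DMSO, and H4C14 alone was at 0.23 on the log2 scale. H3C14 and H3C15 carried the same value in every library, and together had 26, 17.9 and 15 counts in BPAF and 13.5, 16 and 17 in DMSO. Counts were whole numbers in all 6 libraries for 47 of the 69 clustered genes, and among the tested ones of these the median log2 fold change was 0.31. H3C8, H2BC7, H2BC13 and H2AC17 are among them, and each reached the filter level in 3 BPAF but fewer DMSO libraries.

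**Figure D5:**
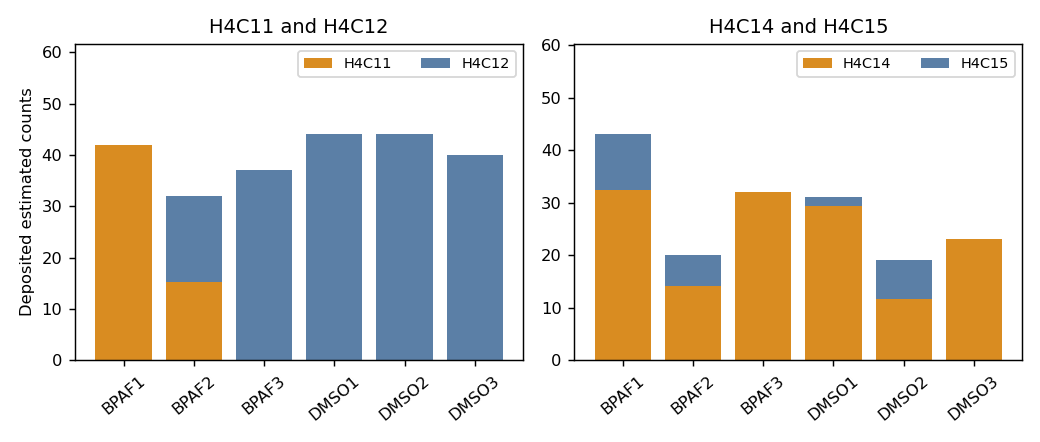
Deposited estimated counts of 2 pairs of near-identical H4 genes in each library, stacked, BPAF libraries left of DMSO libraries. The H4C11 and H4C12 sum is 32 to 44 in every library. Its split between the copies moves among the BPAF libraries, while in DMSO all of it stands on H4C12. The split of H4C14 and H4C15 moves in both groups.

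The promoters of the called gene of each class with the smallest adjusted p are shown for their motifs. Each line holds the 200 bases before the RefSeq start on GRCh38.p14, read 5′ to 3′ on the gene's strand, with 2 promoter motifs in capitals. These are the TATA box letters TATAAA and the CCAAT box, which may stand on either strand.
H3C8, chr6:26271414-26271613, minus strand: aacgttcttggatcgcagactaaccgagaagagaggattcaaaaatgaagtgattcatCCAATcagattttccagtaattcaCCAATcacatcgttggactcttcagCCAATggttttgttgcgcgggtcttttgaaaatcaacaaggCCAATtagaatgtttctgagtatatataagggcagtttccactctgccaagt
H2AZ1, chr4:99950276-99950475, minus strand: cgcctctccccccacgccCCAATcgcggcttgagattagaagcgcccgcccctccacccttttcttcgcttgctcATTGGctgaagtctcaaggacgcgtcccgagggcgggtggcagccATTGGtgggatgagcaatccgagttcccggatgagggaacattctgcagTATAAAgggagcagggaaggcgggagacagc
CCAAT, bound by the factor NF-Y, stood 4 times in the H3C8 window. On either strand it was found in 84.4% of 64 clustered promoters and 81.8% of 11 variant promoters, beside 32.7% of all 27305 promoters. TATAAA, on the gene's strand in the last 40 bases, was found in 53.1% of the clustered, 36.4% of the variant and 3.09% of all promoters. A noncoding gene, H2AZ1-DT, starts on the other strand beside H2AZ1. It had 13, 17 and 15 counts in BPAF and 4, 6 and 6 in DMSO, at 1.43 on the log2 scale (edgeR, adjusted p = 0.0651). Like H3C8, it reached the filter level of 0.473 CPM in BPAF libraries only. Its levels were 0.60, 0.83 and 0.65 CPM in BPAF and 0.18, 0.29 and 0.29 CPM in DMSO. A gene admitted in this way had to differ, so its fold change is not set against that of H2AZ1. In GENCODE release 29 the 2 genes overlap, and the sources used here do not say whether counting used strand.

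Genes that process histone messages, carry histones or act in S phase are given beside the shares of all tested genes called lower, 3.4%, and of the more abundant genes, 4.61%. The list of histone mRNA processing had 32 tested genes, 0 called higher and 3 lower, with a median log2 fold change of -0.05, beside 0.0019 over all genes. The called genes were LSM1, part of the ring that starts histone mRNA decay, and SNRPB and SNRPG, core proteins of spliceosomal snRNPs. They had log2 fold changes of -0.19, -0.17 and -0.26 (edgeR, adjusted p = 0.0458, 0.0248 and 0.0425). LSM1 passed in 0 of 6 fits with a library left out, and SNRPB and SNRPG in 3 of 6. SLBP, given for its role and not by the rule for named genes, had 133 ± 4.54 CPM in BPAF and 138 ± 5.44 CPM in DMSO (SD, n = 3 each; edgeR, adjusted p = 0.55).

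Of 30 tested histone chaperones and exchange factors, 0 were called higher and 4 lower, with a median of -0.04. NPM1, a nucleolar histone chaperone, was at -0.20 on the log2 scale (edgeR, adjusted p = 0.000875). HAT1, which acetylates new H4, was at -0.21 (edgeR, adjusted p = 0.0247). VPS72 and YEATS4, subunits of the complexes that place H2A.Z, were at -0.16 and -0.20 (edgeR, adjusted p = 0.0452 and 0.0134). NPM1 passed with every library left out, HAT1 and YEATS4 in 4 of 6 fits and VPS72 in 2 of 6.

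Of 34 S-phase genes, 0 were called higher and 3 lower, with a median of -0.04. PCNA, the sliding clamp of DNA replication, had 312 ± 5.13 CPM in BPAF and 349 ± 9.14 CPM in DMSO (SD, n = 3 each), at -0.16 on the log2 scale (edgeR, adjusted p = 0.0027). RRM1, a subunit of ribonucleotide reductase, was at -0.15 (edgeR, adjusted p = 0.00674), and MCM7, of the replicative helicase, at -0.11 (edgeR, adjusted p = 0.0309). PCNA and RRM1 passed with every library left out and MCM7 in 1 of 6 fits. The clustered sum was higher in the same BPAF libraries in which these genes were lower. RNAs without a poly(A) tail summed to 80.4, 71.1 and 66.3 CPM in BPAF and 77.6, 61.1 and 77.6 CPM in DMSO. These ranges overlapped and 0 of 8 tested were called by edgeR, the smallest p being that of RNY1 at a log2 fold change of -0.77 (adjusted p = 0.321). SNORA73B, RMRP and RN7SL1 were at -0.68, -0.46 and -0.12 on the log2 scale, with overlapping groups.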

How the data were processed

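RNA from 3 BPAF and 3 DMSO libraries of Jurkat cells was enriched for poly(A) RNA and sequenced as strand-specific read pairs, per the labels' protocols. HISAT2, featureCounts, cutadapt and FastQC, with the builds GRCh38 and hg38, are listed without versions in the submitters' processing notes. The authors deposited estimated counts per feature, not all whole, and TPM values, and the sources used here do not give how either was computed. The 192 features without an Ensembl identifier took 0.243% to 0.271% of counts per library. They were not removed before the tests and went through the same filter as the other features.

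Estimated counts were rounded and genes passing filterByExpr were fitted in edgeR 4.0.16 (R 4.3.3) with TMM scaling and the quasi-likelihood test, with p-values adjusted by the Benjamini-Hochberg method over all 15490 genes with a threshold of 0.05. The biological coefficient of variation was 3.77%. A whole count is one within 1e-09 of an integer. Levels are TMM-scaled CPM, and no test was made over the members as a list. The tests were checked on simulated counts. Every pair of libraries differed by more than sampling noise (chi-square over degrees of freedom 2.34 to 7.11). P-values weigh the difference between the groups against the spread of the libraries within them. Intervals and limits at a count of 0 cover counting error only.

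Positions, strands and transcripts came from GENCODE release 29 (GRCh38) for 79 members, and promoters from RefSeq (GRCh38.p14). The sources used here do not name the annotation that was counted. H3C2 and H3C3 were not in that release. Of 91 rows whose symbol matched the pattern, 10 were not protein-coding and were left out.

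Alternatives were RLE and upper quartile scaling, other count filters, DESeq2 1.42.0, limma-voom (limma 3.58.1), limma on log2(TPM + 1) or log2(TPM + 0.1) of the deposited values, a replicate block, each library left out, and whole counts only. Members, gene lists and tests were chosen with earlier results of these data known. Named were all variants but 1 that is not reported here, all called members, the 6 clustered genes known to be polyadenylated, the 12 others of highest TPM, the 5 smallest and 5 largest log2 fold changes, and the called genes of each context list, or up to 4 with the smallest p.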

Additional observations from a re-analysis of the deposited data

How the results depend on the processing

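The 15490-gene test called 938 genes, and 1 or 2 with limma on the TPM (pseudocount 1 or 0.1), and 322 to 861 with a library left out (322 without BPAF1, 392 without BPAF3, 482 without DMSO1). Upper quartile scaling split the calls into 461 higher and 400 lower, against 411 and 527, and no filter called 1291. The 1 clustered call became 2 with no filter, 0 in DESeq2 without independent filtering and on the TPM, and 0 with a minimum count of 50 and in DESeq2 with its own filter, where H3C8 was left out of the test or had no adjusted p, and 0 to 1 with a library left out. The 3 variant calls became 2 under upper quartile scaling (H3-3B lost), 0 on the TPM and 2 to 3 with a library left out. With whole counts only, 1 call was left, that of H2AZ1. H3-3A and H3-3B have fractional counts and were not in that set, so their calls were not retested there. The clustered median of 0.19 was 0.32 with no filter, 0.31 with whole counts and -0.15 at a minimum count of 50, where 3 genes were left, and 0.19 to 0.38 with a library left out. The variant median of -0.09 was -0.11 with no filter, -0.069 at a minimum count of 50 and 0.0166 or 0.0167 on the TPM, below the all-gene medians of 0.0775 and 0.0892 there, and -0.0958 to -0.0557 with a library left out. Their difference of 0.28 was 0.43 with no filter, -0.085 at a minimum count of 50, 0.15 on log2(TPM + 1) and 0.40 with whole counts, and 0.28 to 0.47 with a library left out. The main clustered median takes in 5 genes that reached the filter level in 3 BPAF but fewer DMSO libraries, and 1 with the reverse. Of these 5, H3C8, H2BC7, H2BC13 and H2AC17 stay in the whole-count set. The main and whole-count differences are therefore not free of that filter. The log2 ratio of summed clustered TPM, 0.15, was 0.22 in CPM and 0.22 with whole counts, and 0.12 to 0.19 with a library left out. That of summed variant TPM, -0.03, was -0.091 in CPM and -0.13 with whole counts, and -0.04 to -0.01 with a library left out. Over 45 named genes, 570 of 672 values kept direction and side of the threshold, 76 lost the call and 26 turned direction. On the TPM these were H3-3B (0.0971 and 0.0973), MACROH2A1 (0.0540 and 0.0541), H2AX (0.0166 and 0.0167), H4C8 (-0.0291 and -0.0384) and H2BC26 (0.0160 and 0.0650), signs that are read against 0 while those medians are above 0: relative to them, the variants MACROH2A1 and H2AX stayed lower and H3-3B lay just above. With a library left out, where the cause was not tested, they were, as lowest and highest values, H2AC19 (-0.5966 to 0.6253), H2AC20 (-0.1704 to 0.4019), H2BC12 (-0.0950 to 0.0423), H2BC17 (-0.1238 to 0.4182), H2BC21 (-0.0053 to 0.2911), H2BC26 (-0.3064 to 0.1307), H4C14 (-0.0416 to 0.4996) and H4C8 (-0.0853 to 0.2843). The replicate numbers did not pair the libraries: same-numbered deviations correlated at 0.006, -0.03 and 0.023, and the fit with the replicate block called 826 genes, 377 higher and 449 lower, with 1 clustered and 3 variant calls. Clustered genes had few counts, which limits what their tests can show.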
